A study of Homo sapiens with 6 samples.

Results

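The genes described here are 10 markers that have been used to recognise breast stem-like or tumour-initiating cells: CD44, CD24, PROM1, LGR4, ALDH1A1, ALDH1A3, SOX2, SOX4, SOX9 and KLF4. They were taken by symbol from the 27968 genes of the gene tables, together with the 8 CD44 transcripts among the 70006 transcripts of the transcript tables. The libraries came from T47D, a human luminal breast cancer cell line that expresses hormone receptors. In the first group, 3 cultures were transfected with an siRNA specific for HOTAIR-N, as the labels name the target. In the other group, 3 cultures were transfected with a control siRNA. All 6 cultures were grown in serum-containing RPMI medium, and RNA was taken 48 hours after transfection with a lipid reagent. The study describes the samples of a group as independent transfections. HOTAIR is a long non-coding RNA of the HOXC cluster, known for its binding to chromatin-modifying complexes. With a single cell line and a single HOTAIR-N siRNA named in the labels, loss of HOTAIR and any other effect of that siRNA cannot be told apart.

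Cells that start tumours when transplanted were first enriched from breast cancers as cells with much CD44 and little CD24 on their surface, and later by aldehyde dehydrogenase activity. CD44 binds hyaluronan and is made in many splice forms, and CD24 is a small, heavily glycosylated surface protein of luminal cells. SOX2, SOX4, SOX9 and KLF4 are transcription factors with known parts in stem or progenitor cells. These markers do not define a single population, and a luminal line such as T47D is known as CD24 high and CD44 low.

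HOTAIR itself had 4.81, 4.81 and 4.87 TPM (a level scaled by transcript length and by the total of the library) with the HOTAIR-N siRNA, against 13.62, 13.44 and 13.86 TPM with the control siRNA. Its log2 fold change of the HOTAIR-N siRNA over the control siRNA was -1.53 (SE 0.07), with an adjusted p of 2.11e-09 by the quasi-likelihood test of edgeR after Benjamini-Hochberg adjustment. These are levels of the HOTAIR gene as a whole. The HOTAIR-N sequence was not matched to the counted HOTAIR transcripts, so HOTAIR-N was not measured on its own. The libraries held 31777001 to 35259407 expected counts with the HOTAIR-N siRNA and 35106084 to 36707169 with the control siRNA. HOTAIR-N siRNA replicate 3 and control siRNA replicate 2 stood apart from the other libraries of their groups, and their deviations from the group means were correlated across genes (Pearson's r of 0.437, taken over genes rather than over independent samples). Without this pair of libraries, the fit called the same 8 markers in the same directions. The 9 luminal epithelial markers were all expressed, with a summed level of 8197 to 9059 TPM with the HOTAIR-N siRNA and 9089 to 10306 TPM with the control siRNA. These sums are mostly keratins, and by gene 6 of the 9 fell and 1 rose. Of all tested genes, 71.1% were called at an adjusted p under 0.05 (36.2% higher, 34.8% lower). The counts of called markers here and in the cell type lists below stand beside that share, and the lists are short. The estrogen receptor gene ESR1 had 28.3 TPM with the HOTAIR-N siRNA and 86.2 TPM with the control siRNA, the progesterone receptor gene PGR had 61.1 TPM with the HOTAIR-N siRNA and 168 TPM with the control siRNA, and CDH1, which encodes E-cadherin, rose (log2 fold change 0.90). The 7 basal and myoepithelial markers summed to 90.1 to 98.7 TPM with the HOTAIR-N siRNA, against 22.6 to 25.0 TPM with the control siRNA. Most of that sum was ACTA2, a smooth muscle actin, which rose. Of the basal keratins, KRT17 rose, with 3.55 TPM with the HOTAIR-N siRNA and 0.190 TPM with the control siRNA (log2 fold change 4.17), while KRT5 stood below 0.1 TPM. KRT17 had only 7, 3 and 5 counts in the control siRNA libraries, so the size of its change is uncertain. In this list 2 of the 5 tested markers rose and 2 fell. Those that fell were OXTR and MYLK, with log2 fold changes of -1.44 and -0.44. TP63 was not called, and KRT14 had too few counts for the test. The 6 leukocyte markers summed to 17.8 to 18.1 TPM with the HOTAIR-N siRNA and 8.02 to 8.42 TPM with the control siRNA, with PTPRC and CD3E below 0.1 TPM, while LCP1 and CD68 rose (2 of 4 tested, none lower). The 6 fibroblast markers summed to 12.4 to 13.9 TPM with the HOTAIR-N siRNA and 9.10 to 10.4 TPM with the control siRNA, with COL1A2, DCN and PDGFRB below 0.1 TPM. Of the 3 fibroblast markers tested, LUM rose, with 4.74 TPM with the HOTAIR-N siRNA and 0.233 TPM with the control siRNA, and the collagen genes COL1A1 and COL3A1 fell, with log2 fold changes of -0.26 and -1.73. LUM had only 8, 9 and 9 counts with the control siRNA, and COL3A1 only 6, 8 and 11 counts with the HOTAIR-N siRNA. All 5 endothelial markers stood below 0.1 TPM. These sums moved with the siRNA, and their part in the results on the markers was not tested.

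Of the 10 markers, 9 had enough counts to be tested and 8 of these changed, 3 higher and 5 lower with the HOTAIR-N siRNA. The call rests on edgeR's quasi-likelihood test, with p adjusted over all 14919 genes tested and a threshold of 0.05. By that rule 71.1% of all tested genes were called (36.2% higher, 34.8% lower), so 8 of 9 is not far from the background. SOX9, ALDH1A3, SOX2, CD44 and SOX4 were lower with the HOTAIR-N siRNA, and PROM1, LGR4 and KLF4 were higher. CD24 was not called, and ALDH1A1 had too few counts for the test. In 7 of the 9 tested markers the groups did not overlap in CPM (counts scaled to library size), as in 73.4% of all tested genes. The median log2 fold change of the 9 markers was -0.14, beside 0.02 over all tested genes, and the median size regardless of sign was 0.74, beside 0.38. A change of at least 2-fold was called for SOX9, ALDH1A3 and PROM1, that is 3 of 9, beside 15.8% of all tested genes. In bulk RNA, fewer cells of a type and less RNA per cell cannot be told apart.

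**Figure D1:**
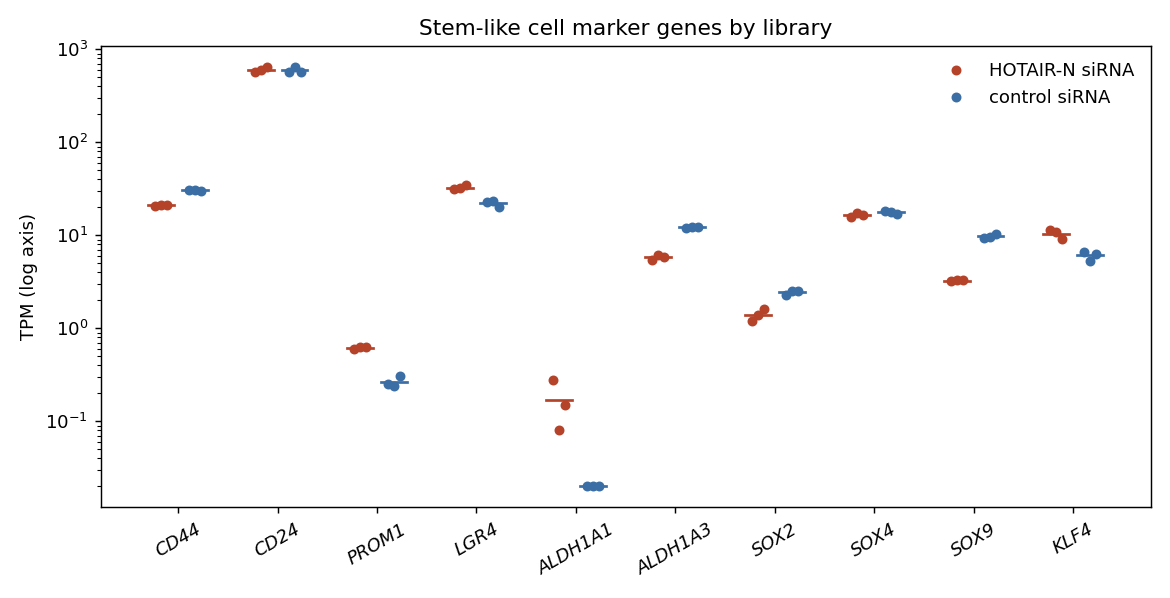
TPM of each marker on a log axis, with the 3 HOTAIR-N siRNA libraries left of the 3 control siRNA libraries, each point a library and each bar the group mean. In TPM the groups overlap for CD24 and SOX4 and separate for the others, and no share over all genes was taken in TPM. ALDH1A1, which is among the others, had too few counts for the test. In CPM the groups did not overlap in 7 of the 9 tested markers, beside 73.4% of all tested genes. CD24 lies more than 10 times above every other marker.

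**Figure D2:**
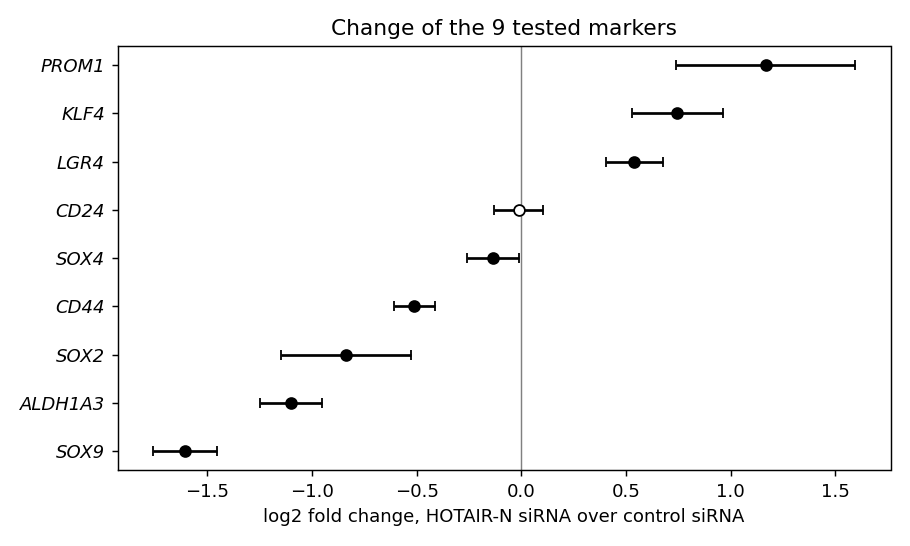
Log2 fold change of the HOTAIR-N siRNA over the control siRNA for the 9 tested markers, with bars for the 95% interval and filled points for an adjusted p under 0.05. SOX9 lies lowest at -1.61 and PROM1 highest at 1.17, and the interval of CD24 spans 0.

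The levels covered a wide range, compared here in TPM because these are scaled by length. With the HOTAIR-N siRNA the order of the means was CD24 at 601 TPM, LGR4 at 32.6, CD44 at 21.1, SOX4 at 16.5, KLF4 at 10.4, ALDH1A3 at 5.83, SOX9 at 3.27, SOX2 at 1.40, PROM1 at 0.62 and ALDH1A1 at 0.17. With the control siRNA it was CD24 at 595 TPM, CD44 at 30.6, LGR4 at 22.0, SOX4 at 17.7, ALDH1A3 at 12.3, SOX9 at 9.74, KLF4 at 6.09, SOX2 at 2.45, PROM1 at 0.267 and ALDH1A1 at 0.02. No neighbours in either order overlapped in their 3 libraries. LGR4 stood above CD44 with the HOTAIR-N siRNA and below it with the control siRNA, and KLF4 stood above ALDH1A3 and SOX9 with the HOTAIR-N siRNA and below both with the control siRNA.

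CD44, the hyaluronan receptor, had 20.85, 21.14 and 21.31 TPM with the HOTAIR-N siRNA, against 30.51, 30.91 and 30.25 TPM with the control siRNA. Every HOTAIR-N siRNA library was below every control siRNA library. CD44 fell to 70.1% of the control level (log2 fold change -0.51, SE 0.04, adjusted p = 6.71e-07 by edgeR's quasi-likelihood test). The gene lies on the plus strand at chr11:35138870-35232402 (GRCh38, GENCODE v29), and an antisense gene that overlaps its exons, CD44-AS1, is annotated there. The strand setting of the counting step was not known here, so reads of CD44 and CD44-AS1 cannot be told apart with certainty.

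CD44 pre-mRNA is known for a block of variable exons, named v2 to v10, between a constant 5′ part and a constant 3′ part, which lengthen the stretch of the protein outside the cell. The transcripts counted here differ in which of these exons follow exon 5. NM_000610 carries v2 to v10 in 18 exons, NM_001001389 carries v3 to v10 in 17 exons and NM_001001390 carries v8 to v10 in 12 exons. NM_001001391 is the standard form without a variable exon, and NM_001202557 also lacks them but ends in another last exon. The join behind exon 5 is what sets these forms apart, so it is shown for each, with 15 bases of exon 5 in lower case and the first 15 bases of the next exon in capitals. The sequences are from the GENCODE v29 transcripts, plus strand of chromosome 11, with exon 5 ending at base 35190065 of GRCh38.
NM_000610, exon 5 to v2: gaatccctgctaccaCTTTGATGAGCACTA
NM_001001389, exon 5 to v3: gaatccctgctaccaGTACGTCTTCAAATA
NM_001001390, exon 5 to v8: gaatccctgctaccaATATGGACTCCAGTC
NM_001001391 and NM_001202557, exon 5 to the next constant exon: gaatccctgctaccaGAGACCAAGACACAT

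Of the 8 CD44 transcripts, 4 were tested and 2 of these were called, both lower with the HOTAIR-N siRNA, beside 32.0% of the 32285 transcripts tested (16.6% called lower). The form that joins exon 5 to v8, NM_001001390, had 1.46, 1.33 and 1.33 TPM with the HOTAIR-N siRNA, against 5.24, 5.22 and 4.91 TPM with the control siRNA. It fell to 26.5% of the control level (log2 fold change -1.92, SE 0.10, adjusted p = 0.00013 by edgeR's quasi-likelihood test). The form that joins exon 5 to v3, NM_001001389, was the most abundant in both groups, with 10.29, 11.45 and 11.08 TPM with the HOTAIR-N siRNA and 16.28, 15.51 and 17.06 TPM with the control siRNA. It fell to 66.2% of the control level (log2 fold change -0.60, SE 0.06, adjusted p = 0.00093 by edgeR's quasi-likelihood test). The longest form, NM_000610, with v2 directly behind exon 5, had 8.73, 7.71 and 8.77 TPM with the HOTAIR-N siRNA and 7.56, 8.35 and 6.84 TPM with the control siRNA. These ranges overlapped, and its log2 fold change was 0.13 (SE 0.10), with an adjusted p of 0.411 by edgeR's quasi-likelihood test.

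Forms without variable exons were rare. NM_001202557 had 15.1, 23.6 and 4.83 expected counts with the HOTAIR-N siRNA, against 58.0, 67.2 and 57.1 expected counts with the control siRNA. Its log2 fold change was -2.02 (SE 0.61) with an adjusted p of 0.0532 by edgeR's quasi-likelihood test, and it was called without HOTAIR-N siRNA replicate 2 (-2.62, adjusted p = 0.0390). NM_001001391, the standard form, was listed at 0 in the 3 HOTAIR-N siRNA libraries and had 5.66 expected counts in control siRNA replicate 2 and 0 in the other control libraries. NM_001001392, NM_001202556 and NM_001202555, of which the last carries v10, were listed at 0 in all 6 libraries.

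**Figure D3:**
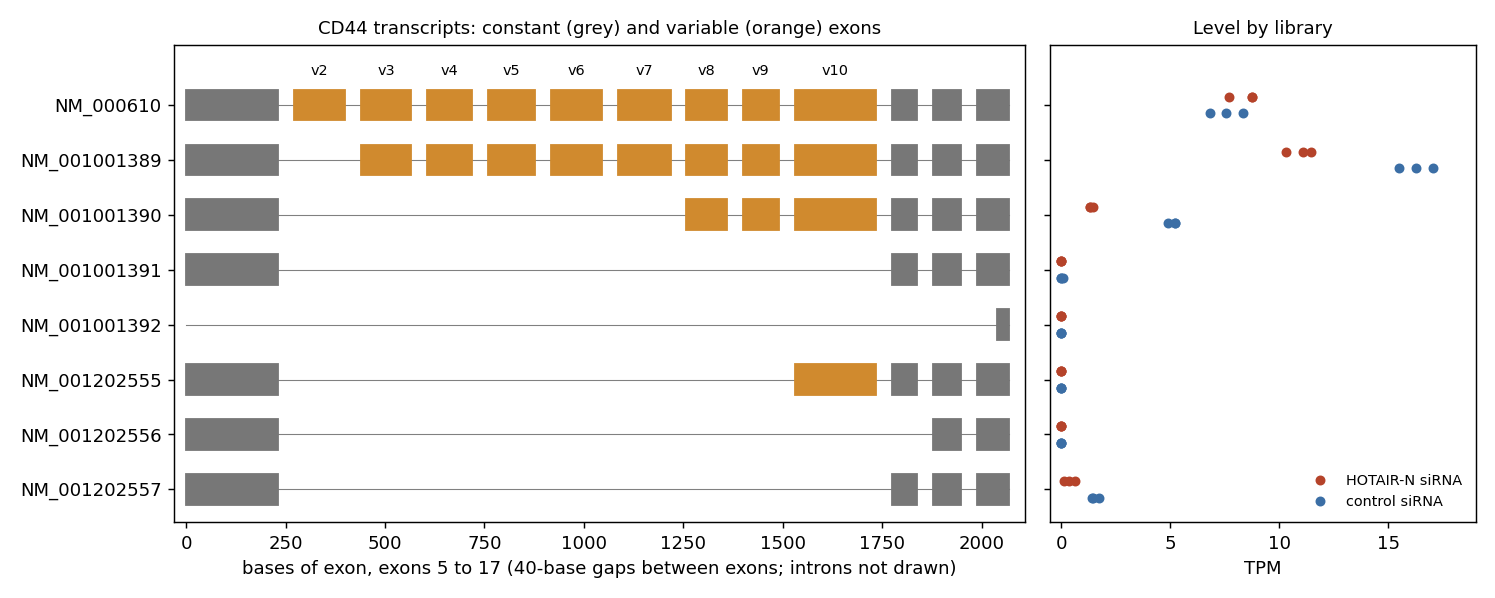
Left, exons 5 to 17 of the 8 CD44 transcripts drawn to scale in bases without introns, with constant exons in grey and variable exons in orange. The exons before exon 5 and the last exon, where NM_001202557 differs, are not drawn. Right, TPM of each transcript by library, HOTAIR-N siRNA above control siRNA, where the v8 to v10 form NM_001001390 sits at 1.33 to 1.46 TPM with the HOTAIR-N siRNA and 4.91 to 5.24 TPM with the control siRNA.

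The deposited shares, which give each transcript as a percent of its gene, moved accordingly. NM_001001390 made up 6.99, 6.31 and 6.25% of CD44 with the HOTAIR-N siRNA, against 17.16, 16.90 and 16.25% with the control siRNA. NM_000610 made up 41.88, 36.48 and 41.16% with the HOTAIR-N siRNA, against 24.78, 27.03 and 22.62% with the control siRNA. For both forms the groups did not overlap, and an exact permutation test, two-sided, gave p = 0.1, the smallest that 3 against 3 libraries allow. NM_001001389 made up 49.35, 54.16 and 52.00% with the HOTAIR-N siRNA and 53.35, 50.18 and 56.41% with the control siRNA, which overlapped (exact permutation p = 0.5). Per library there were 5.98, 5.80 and 6.59 copies of NM_000610 for each NM_001001390 by TPM with the HOTAIR-N siRNA, against 1.44, 1.60 and 1.39 with the control siRNA.

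Tested as usage relative to the whole gene with edgeR's diffSpliceDGE, NM_001001390 was lower with the HOTAIR-N siRNA (log2 usage change -0.98, adjusted p = 0.0346 over 25038 transcripts, of which 2.84% were called). The change of NM_000610 was 0.44 with an adjusted p of 0.0702. CD44 transcript usage as a whole had an unadjusted p of 9.51e-08 by the gene-level F test of edgeR's diffSpliceDGE. By the Simes method of edgeR's diffSpliceDGE, the unadjusted p was 0.00357. The Simes adjusted p was 0.0535 over 7465 genes, of which 6.42% were called. That value passed the threshold with limma on the log2 shares (adjusted p = 0.0032) and with a filter of 1 CPM in 3 libraries (0.0483), and without any single library it lay between 0.0913 and 0.207. NM_000610 and NM_001001389 differ by v2, 129 bases of 5732, so their counts rest on the few reads that cover v2 or its joins and on the estimate that divides the others. The variable exons of NM_001001390, v8 to v10, are also part of both longer forms. Among the counted forms only its join of exon 5 to v8 is its own. The level and share of NM_001001390 thus rest on reads over that join and on the same estimate.

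**Figure D4:**
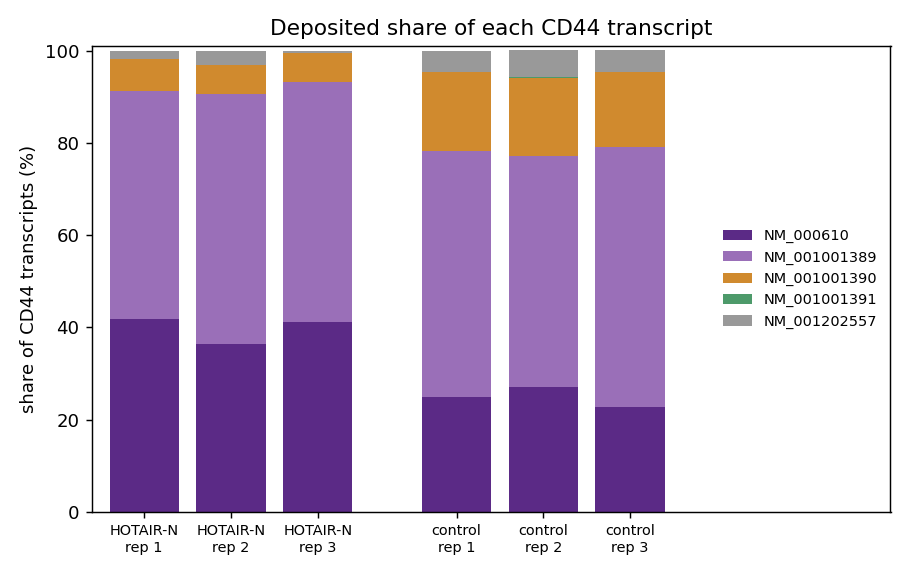
Share of CD44 transcripts, in percent of the gene's level, for each library, HOTAIR-N siRNA left of control siRNA. The v2 to v10 form takes 36.48 to 41.88% with the HOTAIR-N siRNA and 22.62 to 27.03% with the control siRNA, and the v8 to v10 form takes 6.25 to 6.99% with the HOTAIR-N siRNA and 16.25 to 17.16% with the control siRNA.

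CD24 (chr6:106969831-106975627, GRCh38, minus strand), the surface marker that is low on stem-like breast cells, had 564.43, 592.03 and 646.09 TPM with the HOTAIR-N siRNA and 569.09, 639.78 and 575.26 TPM with the control siRNA. The groups overlapped, and the highest library of each was the one that stood apart. The log2 fold change was -0.01 with a 95% interval of -0.13 to 0.10, and the adjusted p was 0.829 by edgeR's quasi-likelihood test. CD24 was more abundant than 98.5% of tested genes in the control siRNA libraries. In GENCODE v29, 3 CD24 pseudogenes are annotated, and how reads were divided between such copies was not known here, so the CD24 level is uncertain to that extent. As CD44 fell and CD24 was not called, there were 27.07, 28.01 and 30.32 CD24 transcripts for each CD44 transcript by TPM with the HOTAIR-N siRNA, against 18.65, 20.70 and 19.02 with the control siRNA. The groups did not overlap (exact permutation p = 0.1, two-sided, the smallest possible).

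PROM1 (chr4:15963076-16084378, minus strand) encodes prominin-1, or CD133, a membrane protein of cell protrusions used to sort stem-like cells from several tumours. It had 0.60, 0.63 and 0.63 TPM with the HOTAIR-N siRNA, against 0.25, 0.24 and 0.31 TPM with the control siRNA. These levels rest on 44, 41 and 43 counts with the HOTAIR-N siRNA and 18, 17 and 22 counts with the control siRNA. PROM1 rose 2.25-fold (log2 fold change 1.17, SE 0.20, adjusted p = 0.00019 by edgeR's quasi-likelihood test), and the groups did not overlap. FGFBP2, whose exons overlap those of PROM1 on the same strand, had 3, 6 and 5 counts with the HOTAIR-N siRNA and 17, 20 and 17 counts with the control siRNA, so reads divided between these genes make both uncertain. The paralog PROM2 was far more abundant, with 67.3 ± 2.99 TPM with the HOTAIR-N siRNA and 46.0 ± 2.31 TPM with the control siRNA (SD, n = 3 each), and it also rose (log2 fold change 0.53).

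LGR4 (chr11:27365961-27472775, minus strand), a receptor for R-spondins that strengthens WNT signalling, had 31.27, 32.26 and 34.41 TPM with the HOTAIR-N siRNA, against 22.54, 23.36 and 20.06 TPM with the control siRNA. Every HOTAIR-N siRNA library was above every control siRNA library, and LGR4 rose 1.45-fold (log2 fold change 0.54, SE 0.06, adjusted p = 6.81e-06 by edgeR's quasi-likelihood test). Its paralogs were barely detected. LGR5, the intestinal stem cell marker, had 2 counts over the 3 HOTAIR-N siRNA libraries and 1 over the 3 control siRNA libraries, and LGR6 had 10 with the HOTAIR-N siRNA and 23 with the control siRNA.

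ALDH1A3 (chr15:100877714-100916626, plus strand), an enzyme that makes retinoic acid and is known as a main source of the aldehyde dehydrogenase activity of breast cancer cells, had 5.42, 6.16 and 5.91 TPM with the HOTAIR-N siRNA. With the control siRNA it had 12.02, 12.36 and 12.39 TPM. ALDH1A3 fell to 46.7% of the control level with no overlap (log2 fold change -1.10, SE 0.07, adjusted p = 2.94e-08 by edgeR's quasi-likelihood test). ALDH1A1 (chr9:72900662-73080442, minus strand), the other enzyme of this marker assay, had 12, 3 and 6 counts with the HOTAIR-N siRNA and 1 count in each control siRNA library. Its counts summed to 21 with the HOTAIR-N siRNA and 3 with the control siRNA, a depth-scaled ratio of 7.52 with a 95% interval of 2.24 to 39.4 that covers counting error only. Over libraries, the exact permutation test, two-sided, gave p = 0.1, the smallest possible. ALDH1A1 was more abundant than 1.58% of tested genes with the HOTAIR-N siRNA and 0.0603% with the control siRNA.

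SOX2 (chr3:181711924-181714436, plus strand), a pluripotency factor, had 1.2, 1.39 and 1.61 TPM with the HOTAIR-N siRNA, against 2.28, 2.54 and 2.53 TPM with the control siRNA. SOX2 fell to 55.96% of the control level without overlap (log2 fold change -0.84, SE 0.14, adjusted p = 0.000208 by edgeR's quasi-likelihood test). The gene lies inside the non-coding gene SOX2-OT on the same strand, which had 12 counts over the HOTAIR-N siRNA libraries and 4 over the control siRNA libraries.

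SOX9 (chr17:72121020-72126420, plus strand), a factor of mammary luminal progenitors, had 3.21, 3.27 and 3.32 TPM with the HOTAIR-N siRNA, against 9.43, 9.58 and 10.22 TPM with the control siRNA. It fell to 32.8% of the control level (log2 fold change -1.61, SE 0.07, adjusted p = 1.56e-09 by edgeR's quasi-likelihood test). This was the largest change in log2 size among the 9 tested markers, and it exceeded the change of 94.0% of tested genes. SOX4 (chr6:21592768-21598619, plus strand), a factor linked to the mesenchymal transition, had 15.69, 17.22 and 16.49 TPM with the HOTAIR-N siRNA and 18.48, 17.93 and 16.75 TPM with the control siRNA. The groups overlapped. SOX4 was called lower by a narrow margin (log2 fold change -0.14, SE 0.06, adjusted p = 0.0488 by edgeR's quasi-likelihood test), and 10 of 17 alternative settings lost that call. The SOX4 log2 fold change had an adjusted p of 0.186 without HOTAIR-N siRNA replicate 1, 0.0665 without HOTAIR-N siRNA replicate 3, 0.154 without control siRNA replicate 1 and 0.0579 without control siRNA replicate 2. Antisense genes are annotated over exons of SOX4 and ALDH1A3, and the counts of both are uncertain to that extent. With the unequal falls there were 5.04 ± 0.199 SOX4 transcripts for each SOX9 transcript by TPM with the HOTAIR-N siRNA and 1.82 ± 0.166 with the control siRNA (SD, n = 3 each).

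KLF4 (chr9:107484852-107490482, minus strand), a zinc finger factor that is part of the reprogramming set, had 11.30, 10.80 and 9.15 TPM with the HOTAIR-N siRNA, against 6.60, 5.36 and 6.32 TPM with the control siRNA. KLF4 rose 1.67-fold without overlap (log2 fold change 0.74, SE 0.10, adjusted p = 2.91e-05 by edgeR's quasi-likelihood test). KLF4 and SOX2, which belong to the same reprogramming set, thus moved in opposite directions.

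The relatives and partners of the markers are given by lists without the 10 markers, and the share called in each stands beside the 71.1% of all tested genes. In the ALDH family 3 of 13 tested genes rose and 5 fell (61.5% called, median log2 fold change 0.03). ALDH3B1 and ALDH3B2, which oxidise lipid-derived aldehydes, rose, with 24.8 and 81.8 TPM with the HOTAIR-N siRNA and 8.71 and 37.6 TPM with the control siRNA. The mitochondrial enzymes ALDH6A1 and ALDH5A1 fell, with 15.6 and 10.1 TPM with the HOTAIR-N siRNA and 36.7 and 17.2 TPM with the control siRNA. The family thus moved in both directions, and ALDH1A2 had 2 counts with the HOTAIR-N siRNA and 1 with the control siRNA. In the SOX family 2 of 5 tested genes rose and 2 fell (80.0% called, median -0.57), and 12 were not tested. SOX5 had 0.0333 TPM with the HOTAIR-N siRNA and 0.223 TPM with the control siRNA (log2 fold change -2.85). These SOX5 levels rest on 2, 6 and 4 counts with the HOTAIR-N siRNA and 36, 26 and 27 counts with the control siRNA. SOX18, an endothelial factor, had 0.600 TPM with the HOTAIR-N siRNA and 1.47 TPM with the control siRNA (log2 fold change -1.32). SOX13 had 44.97 TPM with the HOTAIR-N siRNA and 36.3 TPM with the control siRNA (log2 fold change 0.28). In the KLF family 6 of 13 tested genes rose and 4 fell (76.9% called, median 0.02). KLF15, KLF9, KLF5 and KLF6 rose with log2 fold changes of 1.75, 0.80, 0.68 and 0.35, and KLF13 and KLF2 fell with -1.06 and -0.96.

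Around CD44, 2 of 8 tested genes of hyaluronan synthesis, turnover and binding rose and 4 fell (75.0% called, median -0.26). HAS3, a hyaluronan synthase, had 0.983 ± 0.0379 TPM with the HOTAIR-N siRNA and 2.90 ± 0.132 TPM with the control siRNA (SD, n = 3 each), a log2 fold change of -1.63. HMMR, a hyaluronan receptor that also acts at the mitotic spindle, had 37.8 TPM with the HOTAIR-N siRNA and 104 TPM with the control siRNA, and UGDH, which makes a hyaluronan precursor, fell by 0.57 on the log2 scale. HYAL3, a hyaluronidase family member, rose (log2 fold change 0.59). Among the proteins that tie CD44 to the cytoskeleton or cut it, 4 of 13 rose and 4 fell (61.5% called, median 0.07), with radixin (RDX) at 79.8 TPM with the HOTAIR-N siRNA and 121 TPM with the control siRNA. APH1A, a subunit of gamma-secretase, also fell (log2 fold change -0.21), whereas the linker ANK3 and the sheddase ADAM17 rose (log2 fold changes 0.42 and 0.25). Of 15 splicing regulators with known effects on CD44 exons, 1 rose and 10 fell (73.3% called, median -0.37). TRA2B, which promotes inclusion of variable exons, had 71.3 TPM with the HOTAIR-N siRNA and 109 TPM with the control siRNA (log2 fold change -0.65). HNRNPA1, HNRNPM and HNRNPL fell with log2 fold changes of -0.59, -0.48 and -0.44. ESRP1, the epithelial regulator that favours variable exons, was looked at after its values were seen and was not called, with 147 TPM with the HOTAIR-N siRNA and 142 TPM with the control siRNA (adjusted p = 0.515 by edgeR's quasi-likelihood test). ESRP2, in the same list and also looked at after its values were seen, was called lower (log2 fold change -0.31). It had 75.0 TPM with the HOTAIR-N siRNA and 91.3 TPM with the control siRNA.

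In the LGR4 pathway, 6 of 29 tested genes of R-spondin and WNT signalling rose and 17 fell (79.3% called, median -0.29). RNF43, a membrane ubiquitin ligase that removes WNT receptors and is inhibited through LGR4 and R-spondin, rose, with 3.01 TPM with the HOTAIR-N siRNA and 0.847 TPM with the control siRNA (log2 fold change 1.79). The receptor FZD4 rose by 0.78 on the log2 scale, as the only FZD gene called higher. FZD1, FZD2, FZD3, FZD6, FZD7 and FZD8 fell, and FZD5 and FZD9 were not called. LRP5, LRP6 and ZNRF3 of the same list also fell, with log2 fold changes of -0.85, -0.44 and -0.32. GSK3B, a kinase of the beta-catenin destruction complex, and LEF1, a nuclear partner of beta-catenin, fell with log2 fold changes of -0.62 and -1.50. Among the other genes of retinoid metabolism and response, beside the ALDH1A enzymes, 1 of 13 rose and 6 fell (53.8% called, median -0.15). RDH10, which makes retinaldehyde for these enzymes, had 5.34 TPM with the HOTAIR-N siRNA and 13.4 TPM with the control siRNA, and DHRS3 and the receptor RARG also fell, with log2 fold changes of -0.57 and -0.47. RXRB, a retinoid X receptor, rose (0.84). Of the other pluripotency factors 6 were tested, 2 higher and 3 lower (83.3% called, median -0.19), and 9 had too few counts, among them POU5F1 and NANOG. LIN28A, which blocks let-7 maturation, had 12.0 TPM with the HOTAIR-N siRNA and 15.7 TPM with the control siRNA, and NR5A2 and TFCP2L1 fell with log2 fold changes of -2.14 and -1.99. LIN28B, the paralog of LIN28A with the same known role, rose, with 0.477 TPM with the HOTAIR-N siRNA and 0.280 TPM with the control siRNA (log2 fold change 0.75, adjusted p = 0.00949 by edgeR's quasi-likelihood test).

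Other mammary stem and progenitor markers also went both ways, with 7 of 27 tested higher and 13 lower (74.1% called, median -0.23). PROCR, a receptor that marks mammary stem cells in mice, had 34.6 ± 3.29 TPM with the HOTAIR-N siRNA and 11.04 ± 0.301 TPM with the control siRNA (SD, n = 3 each). CD55, a complement regulator, had 55.7 ± 1.45 TPM with the HOTAIR-N siRNA and 23.2 ± 0.545 TPM with the control siRNA. NOTCH2 had 19.2 TPM with the HOTAIR-N siRNA and 55.2 TPM with the control siRNA. CXCR4, a chemokine receptor, had 0.263 TPM with the HOTAIR-N siRNA and 3.73 TPM with the control siRNA, a log2 fold change of -3.83. These CXCR4 levels rest on 8, 7 and 7 counts with the HOTAIR-N siRNA and 96, 123 and 99 counts with the control siRNA. The size of that change is therefore uncertain.

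**Figure D5:**
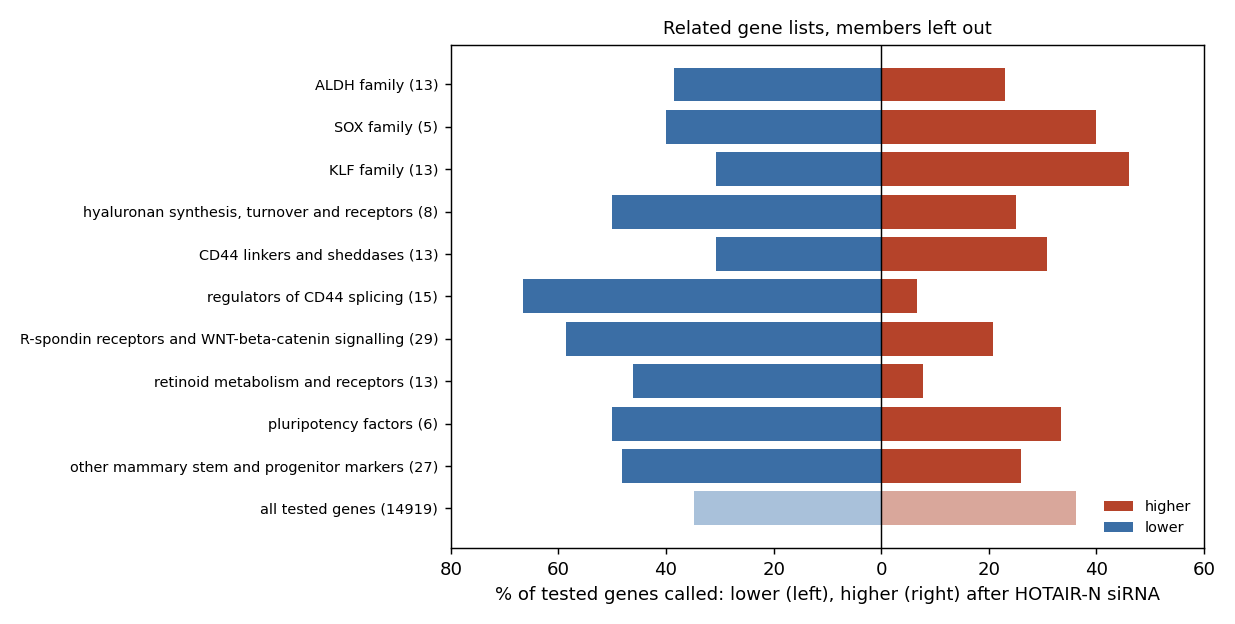
Percent of tested genes called higher or lower with the HOTAIR-N siRNA in each list without the 10 markers, with all 14919 tested genes for comparison (36.2% higher, 34.8% lower). The regulators of CD44 splicing have 10 of 15 genes lower and 1 higher, and the KLF family has 4 of 13 lower and 6 higher.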

How the data were processed

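RNA-seq of 6 libraries was used, 3 per siRNA. Per the labels, libraries were made from total RNA after ribosomal RNA removal with a stranded kit. The submitters' processing notes name STAR 2.6.0c, RSEM 1.3.0 and hg19, and leave the strand setting of the counts unstated. Per the file headers, the deposited tables hold RSEM expected counts, TPM and FPKM per gene and transcript, and the transcript tables give each transcript's share of its gene as a percent. FPKM were not used.

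Expected counts were rounded, filtered with filterByExpr (minimum count 10, minimum total 15), scaled by TMM and tested with edgeR 4.0.16 in R 4.3.3 (quasi-likelihood test, no covariates, Benjamini-Hochberg over all features, threshold 0.05). SEs are the fold change over the root of the F statistic, and 95% intervals use the test's own degrees of freedom. Transcript usage was tested with diffSpliceDGE and single ratios with exact permutation tests over libraries (5 ratios, each with p = 0.1 before and after Benjamini-Hochberg adjustment). The steps were tested on simulated data. Alternatives were other scalings, DESeq2 1.42.0, limma 3.58.1 with voom, other filters, a replicate block, a test against 1.2-fold, an adjusted p under 0.01 and leaving out libraries.

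The members and lists were chosen with earlier results of these data known. Genes named are HOTAIR, the 10 markers, all CD44 transcripts, the 4 tested genes with the smallest p of each list and paralogs of the markers, of which those the text needs are printed. ESRP1, ESRP2, ZNRF3, LRP5, LRP6, the FZD genes other than FZD4 and the genes that overlap a marker were named after values were seen. Single genes of the cell type lists were named without a rule set for them. Sequences and positions come from GENCODE v29 on GRCh38, while the files use hg19. No protein sequences were used.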

Additional observations from a re-analysis of the deposited data

How the results depend on the processing

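The 7 called markers other than SOX4 kept their direction and call under all 17 alternatives, and 7 to 9 markers were called. The 9 came without a filter, where ALDH1A1 was also tested and called. SOX4 ranged from -0.18 to -0.04 (log2) and lost its call under 10 alternatives, among them upper-quartile scaling, library totals alone and the stricter threshold. CD24 was not called under any of them, but the CD24 log2 fold change turned positive with upper-quartile scaling (0.0442) and with library totals alone (0.0851), and leaving out single libraries gave -0.0657 to 0.0335. A test against a 1.2-fold change called 6876 genes in all, 2 of the SOX list, 3 of the CD44 linkers and sheddases and 14 of the R-spondin and WNT list, as fewer genes pass a larger minimum change. CD44 transcript usage passed the threshold with the filter of 1 CPM in 3 libraries (0.0483) and with the ordinary t test on log2 shares (0.0032), and leaving out single libraries gave 0.0913 to 0.207. NM_001202557 was called under 4 alternatives, with DESeq2, limma-voom, the 1 CPM filter and without HOTAIR-N siRNA replicate 2, and CD44 transcripts called numbered 2 to 3. Replicate numbers did not pair the libraries (same-number r = 0.0991, -0.327 and -0.246 across genes), and with the replicate block 10010 genes and 7 markers were called, the CD44 usage adjusted p was 0.155 and SOX4 was not called. Leaving out single libraries gave 9906 to 10727 genes called. PROM1 at 17 to 44 counts, SOX2 and ALDH1A1 are limited by depth. KRT17, LUM, COL3A1, OXTR, SOX5, SOX18, KLF2, KLF15, NR5A2, LIN28B, FZD8 and CXCR4 had few counts in the group where they were lower. KLF2 lost its call under 1 of the 16 alternatives in which it was tested.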

Other observations

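CD24 reads fell on 2 main transcripts whose split varied between libraries within each group. NM_001291739 took 22.95, 17.84 and 32.01% of CD24 with the HOTAIR-N siRNA and 21.46, 32.33 and 22.24% with the control siRNA. The highest share of each group was in HOTAIR-N siRNA replicate 3 and control siRNA replicate 2, the libraries that stood apart across all genes. Neither NM_001291739 nor NM_001359084, the more abundant form, was called between the siRNAs (adjusted p = 0.906 and 0.909 by edgeR's quasi-likelihood test). SOX12, a close relative of SOX4, was called higher (31.2 ± 1.55 TPM with the HOTAIR-N siRNA and 27.4 ± 1.48 TPM with the control siRNA, SD, n = 3 each, adjusted p = 0.0269 by edgeR's quasi-likelihood test). That call was lost under 6 of 17 alternatives, and the SOX12 log2 fold change had an adjusted p of 0.0934 without HOTAIR-N siRNA replicate 1, 0.120 without HOTAIR-N siRNA replicate 2 and 0.0845 without control siRNA replicate 2.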
